A study of Mus musculus with 2 samples.

Results

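Genes named for 7 families of amino acid transporters were compared between splenic monocytes of mice with a 5/6 nephrectomy (5/6Nx) and of sham-operated mice. The members are all genes whose name in the array files starts with Slc1a, Slc3a, Slc6a, Slc7a, Slc36a, Slc38a or Slc43a, apart from Slc7a1, Slc7a2 and Slc7a11, which were left out by the rule. These are 63 of the 24813 genes named on the arrays, read by 114 probes of 60 bases with a single spot each. Of the 63, 59 are named as transporters, and 4 (Slc7a6os, Slc36a1os, Slc36a3os and Slc6a19os) are named as lying opposite a transporter gene.

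Both groups were mice of ICR, an outbred stock. In a 5/6 nephrectomy most of the kidney tissue is removed, which models chronic kidney disease, and sham-operated mice served as controls. The cells were isolated from spleen by a cytometry sort on CD11b and Ly6C, 8 weeks after surgery, and RNA of each group was hybridised to 1 array with a single colour (Cy3). The number, age and sex of the mice behind each array are not given in the sources used here. With 1 array per group no difference has a replicate check, so no p-value is given and every difference compares these 2 arrays.

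Amino acid transporters of the solute carrier (SLC) superfamily move amino acids and related small molecules across the plasma membrane and the membranes of lysosomes and vesicles. The SLC7 light chains LAT1 and LAT2 reach the cell surface bound to the SLC3 heavy chain CD98, and exchange large neutral amino acids. SLC6 carriers use sodium and chloride to take up GABA, glycine, taurine, creatine, betaine and monoamines, SLC1 carriers take up glutamate or small neutral amino acids, SLC36 carriers are coupled to protons, and SLC38 carriers move glutamine and other small neutral amino acids. Macrophages and monocytes use these carriers to feed protein synthesis and to empty lysosomes after the breakdown of engulfed protein.

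A value is the processed intensity of a probe, in arbitrary units, and a difference is 5/6Nx minus sham in log2 units after each array was divided by its own 75th percentile. A gene counted as measured when at least 1 of its probes was well above background on both arrays by the scanner software's flag, and its brightest such probe stands for it. The share of the 59305 non-control spots above background was 63.0% for sham and 67.0% for 5/6Nx, with none saturated. The software's own error of a member difference was 0.20 to 0.30 (median 0.21), and a difference between single spots of the same probe varied by an SD of 0.059 over 283 probes printed in at least 8 copies. Neither error covers the animals, the sort or the labelling.

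Of the 63 genes, 38 were measured on both arrays, 7 exceeded background in 5/6Nx alone, none in sham alone, and 18 in neither. Over all named genes 63.3% were measured on both arrays, 6.43% exceeded background in 5/6Nx alone and 1.69% in sham alone. Among the 38, 6 exceeded their sham value by 2-fold or more (15.8%), against 12.3% of all 15715 measured genes, and 9 lay below it by 2-fold or more (23.7%), against 10.9%. Such genes are called higher and lower below. For a gene above background in 5/6Nx alone, "at least" gives the fold of its 5/6Nx value over the dim probe's sham value or, where that is higher, over the lowest value well above background on the sham array. The split of 6 higher against 9 lower became 10 against 6 when the arrays were scaled on spike-in controls and 4 against 11 when scaled on the median. Spike-in scaling moved every difference up by 0.36 and median scaling moved every difference down by 0.15. The median difference of the members was 0.014, beside -0.12 for all genes.

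**Figure D1:**
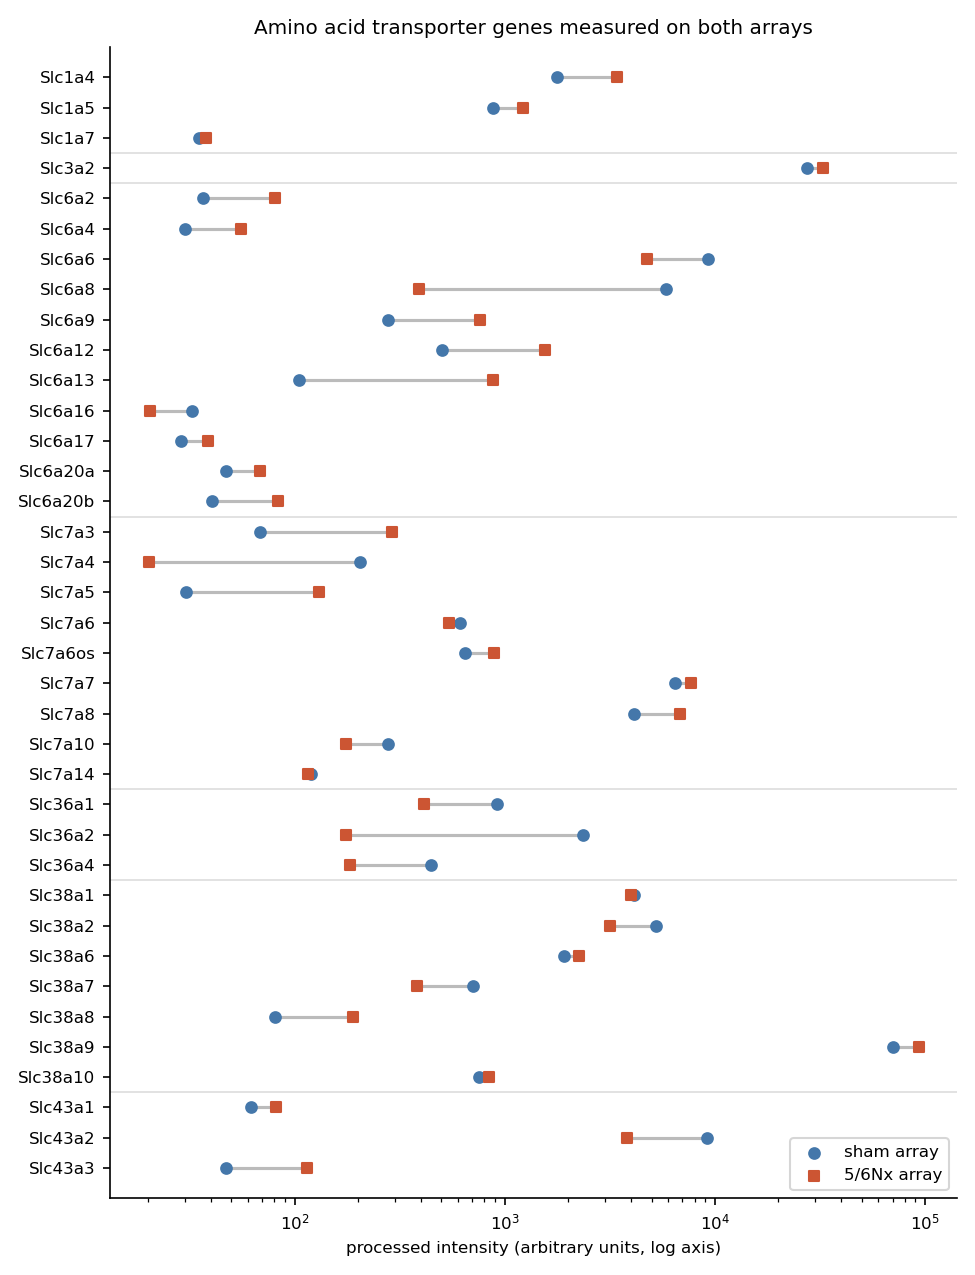
Processed intensity (log axis, arbitrary units) of 37 of the 38 genes measured on both arrays, by family, with circles for the sham array, squares for the 5/6Nx array and a grey line joining them. The widest gaps are those of Slc6a8, Slc36a2 and Slc7a4, where the sham array is higher, and of Slc6a13, where the 5/6Nx array is higher.

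Markers of the sorted cells and of other cells also differed between the arrays. All 10 monocyte markers were measured, 3 higher and 2 lower, with a median of -0.31. Fcgr1 was at 2.63, Ly6c1 and Ly6c2 at 1.98, Itgam (CD11b) at -0.35, Mpeg1 at -1.04 and Cd68 at -1.42. Their summed level was 1495 in sham and 1705 in 5/6Nx monocytes. It is given in multiples of the 75th percentile, here over every marker above background on at least 1 array. The sum includes genes of the sort antigen: Ly6c1 read 43112 and 210831, and Ly6c2 read 43666 and 213343. Lyz2, the largest in sham, read 324209 and 280049 (-0.52). A sum without the Ly6c genes was not computed. Of 12 T cell markers 8 were higher and 2 more appeared in 5/6Nx only, with Cd3g at 6.31 and Cd3d at 6.19, and a summed level of 7.64 against 63.6. Of 10 NK cell markers 3 were higher and 7 more appeared in 5/6Nx only, with Il2rb at 7.67 and Tbx21 at 3.36, and a summed level of 0.71 against 42.4. Of 8 measured platelet markers 2 were higher (Clec1b at 3.59 and Itgb3 at 2.89) and 3 lower (Pf4 at -4.30, Treml1 at -3.80 and Ppbp at -2.62), and Itga2b and Gp6 appeared in 5/6Nx only, at least 3.74-fold and 144-fold higher. Their summed level was 409.8 against 34.0, of which Pf4 made up 369.1 in sham. Medians of the other 7 lists (B, plasma, dendritic, neutrophil, basophil and mast, erythroid and red pulp macrophage) ranged from -0.44 to 1.90. Their largest measured differences were Cd79b at 1.92 and Bank1 at 1.38, Irf4 at 4.41 and Sdc1 at -2.10, Bst2 at 5.70 and Itgae at 4.43, Lcn2 at 7.31 and Ly6g at 4.53, Fcer1a at 2.32 and Hdc at 1.48, Hba-a1 at 2.70 and Epor at -0.79, and Spic at 5.53 and Trf at -4.08, in that order. In 5/6Nx only appeared 3 B, 4 plasma, 2 dendritic, 2 neutrophil, 6 basophil and mast and 1 red pulp macrophage marker. In sham only appeared 1 erythroid marker. Jchain was at least 1857-fold and Mcpt8 at least 102-fold higher. The basophil and mast median rests on 2 genes. Of dendritic and neutrophil markers 3 each were higher and 1 each lower (Clec10a at -4.12 and Mmp8 at -3.97). Their summed levels were 282.0 against 278.3 and 31.8 against 29.2, of which Siglech made up 229.4 and Mmp8 21.5 in sham. Summed levels of B, plasma, and basophil and mast markers were 3.42 against 5.90, 39.5 against 113.0 and 0.35 against 7.87. Those of erythroid and red pulp macrophage markers were 1.41 against 3.89 and 157.0 against 180.5. Of the 9 erythroid markers on the arrays 5 were not well above background on either, among them Alas2, Slc4a1 and Hbb-b1. The part of other cells in the transporter differences was not tested, and in bulk RNA fewer cells of a type and less RNA per cell cannot be told apart.

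Among carriers of creatine, taurine, betaine and GABA in the SLC6 family, members differed in both directions. Slc6a8, the creatine transporter, read 5879 in sham and 389 in 5/6Nx monocytes, a difference of -4.23 or 18.7-fold lower. Its other probe, at chrX:70925849-70925908 on the plus strand (build mm9, as are all probe positions here), read 1578 and 90.1, a difference of -4.44. Both probes were bright in sham and low in 5/6Nx monocytes. Slc6a6, the taurine transporter, read 9254 and 4776, a difference of -1.26. Another probe read 1292 and 546.5 (-1.55), and the remaining probe read 33.5 in sham and was not well above background in 5/6Nx, at least 3.03-fold lower. All 3 Slc6a6 probes thus lay lower on the 5/6Nx array, though the difference of the brightest was -0.90 with spike-in scaling.

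Slc6a13 (GAT2), which carries GABA and taurine, read 104.8 in sham and 883.4 in 5/6Nx monocytes, a difference of 2.77 or 6.81-fold higher. Slc6a12 (BGT1), the betaine and GABA transporter, read 503 and 1556, a difference of 1.32. These genes are neighbours on chromosome 6, with their probes 27.9 kb apart (chr6:121287597-121287656 for Slc6a13 and chr6:121315541-121315600 for Slc6a12, both on the plus strand), and both were higher on the 5/6Nx array. Slc6a9 (GlyT1), a glycine transporter, read 278.5 and 758.5, a difference of 1.14. Its only probe shares a run of 37 bases with a probe of Ccdc24 on the opposite strand.

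A further 6 SLC6 genes measured on both arrays lay within 2-fold and were dim, between 20.5 and 83.0 on the 2 arrays. The monoamine carriers Slc6a2 (noradrenaline) and Slc6a4 (serotonin) differed by 0.84 and 0.58. The curated probe of Slc6a2 differed by 0.17, and that of Slc6a4 was not well above background on either array. Slc6a20b and Slc6a20a, the mouse pair of proline and imino acid carriers, differed by 0.73 and 0.22, Slc6a17, a synaptic vesicle carrier of neutral amino acids, by 0.12, and Slc6a16 by -0.97. Slc6a19 (B0AT1), the neutral amino acid carrier of kidney and gut epithelium, read 13.3 in sham, not well above background, and 221.7 in 5/6Nx monocytes, at least 13.5-fold higher. Slc6a3, Slc6a5, Slc6a7, Slc6a11, Slc6a14, Slc6a15, Slc6a18 and Slc6a19os were not well above background on either array, among them Slc6a18 and Slc6a3, which lie 17.2 kb and 102.7 kb from Slc6a19.

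All 3 measured genes of the proton-coupled SLC36 family were lower on the 5/6Nx array, as were each of their 5 measured probes. Slc36a2 (PAT2), which carries glycine, alanine and proline, read 2369 in sham and 174.7 in 5/6Nx monocytes, a difference of -4.07 or 16.8-fold lower. A further probe read 2817 and 126.4 (-4.79). The probe on the curated transcript read 2613 in sham and 3.67, not well above background, in 5/6Nx monocytes, at least 236-fold lower. Each of the 3 probes thus lay lower in 5/6Nx monocytes, by differing amounts. Their first 30 bases, given because the probes disagree on the size of the difference, come from separate stretches of the minus strand:
Slc36a2 probe at chr11:54981616-54981675: agacctaagttccatcctcagcaccccatt
Slc36a2 probe at chr11:54979387-54979446: ttggggatgtggcctggcagagacagagaa
Slc36a2 probe at chr11:54972134-54972193, on the curated transcript: gcaatgaacatcttctgttacctgtcgggc

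Slc36a4 (PAT4), a carrier of proline and tryptophan, read 448 and 183.6, a difference of -1.60 or 3.02-fold lower. Slc36a1 (PAT1), which exports small amino acids from lysosomes, read 918.6 and 411.3, a difference of -1.47, with -1.35 for its other probe. Slc36a1 and Slc36a2 are neighbours, with probes 68.4 kb apart, and both were lower on the 5/6Nx array. In the same cluster Slc36a3 and Slc36a1os were not well above background on either array, and Slc36a3os exceeded background in 5/6Nx only, at 3.01 against 66.0, at least 4.17-fold higher. In this cluster the measured transporters were lower, and only the opposite-strand Slc36a3os, given as a bound, was higher.

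In the SLC38 family 7 of 11 genes were measured, and 2 were lower and none higher on the 5/6Nx array. Slc38a7 (SNAT7), which releases glutamine from lysosomes, read 707 and 380.4, a difference of -1.20, and -0.84 with spike-in scaling. Slc38a2 (SNAT2), the carrier whose transcript rises when amino acids are scarce or the medium is hypertonic, read 5242 and 3179, a difference of -1.03, and -0.67 with spike-in scaling. Its dimmer probe, on a cDNA sequence, read 70.9 and 113 (0.37), the opposite direction, and the mean over both probes was -0.33. The neighbouring Slc38a1 (SNAT1) read 4120 and 4003, a difference of -0.35, and its 4 probes ranged from -1.02 to -0.32.

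Slc38a9, the lysosomal carrier through which arginine is sensed, had 2 measured probes that differed in sign. Its brightest probe, on a cDNA sequence, read 70215 in sham and 93061 in 5/6Nx monocytes, a difference of 0.098. The probe on the curated transcript read 737.7 and 700.9 (-0.38). Bases of the bright probe recur widely: 43 other genes hold a run of 16 bases of it in the 300 bases around their RefSeq transcription start (GRCm38.p6), and 33 of them hold the run in capitals below. The same holds for a probe of Slc3a2 (90 other genes, 42 for the run in capitals) and for the only probe of Slc1a4 (27 and 17). Whether these probes read other transcripts was not tested:
Slc38a9 probe at chr13:113495110-113495169, bases 2 to 31: ctctgtgAGTTCCAGGACAGCCAaagctac
Slc3a2 probe at chr19:8781855-8781914, bases 8 to 37: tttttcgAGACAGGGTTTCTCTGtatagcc
Slc1a4 probe at chr11:20202615-20202674, bases 22 to 51: gtatcaaGTGTGTGTGTGTATGTgtgtgct

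Slc38a6, Slc38a8 and Slc38a10 lay within 2-fold, at -0.065, 0.93 and -0.14. The dimmer measured probe of Slc38a10 was at -1.31. Slc38a3, Slc38a4, Slc38a5 and Slc38a11 were not well above background on either array.

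Among the large neutral amino acid carriers, the heavy chain lay within 2-fold and a light chain and an exporter did not. Slc3a2, which encodes the CD98 heavy chain, read 27325 and 32554, a difference of -0.056. Slc7a5 (LAT1) read 30.4 in sham and 130.3 in 5/6Nx monocytes, a difference of 1.79 or 3.46-fold higher. Its sham intensity is near background, and with another background correction (normexp) the difference was 0.77, below 2-fold. Slc7a8 (LAT2) read 4139 and 6846, a difference of 0.42, with -0.97 for its dimmer probe. Slc43a2 (LAT4), which carries branched-chain amino acids and phenylalanine out of cells, read 9194 and 3826, a difference of -1.57 or 2.98-fold lower. Its 3 probes were all lower on the 5/6Nx array, from -2.36 to -1.55. Slc43a1 (LAT3) differed by 0.084, and the neighbouring Slc43a3, known for nucleobase transport, by 0.98.

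Of the carriers of cationic amino acids, Slc7a3 (CAT3) read 68.3 and 290.0, a difference of 1.78 or 3.43-fold higher, and 1.18 with normexp. Slc7a4, which resembles the cationic carriers in sequence, read 203.7 and 20.2, a difference of -3.64 or 12.5-fold lower, and -1.98 with normexp. Its 5/6Nx intensity is near background. The exchangers Slc7a7 (y+LAT1), the carrier mutated in lysinuric protein intolerance, and Slc7a6 (y+LAT2) lay within 2-fold: Slc7a7 read 6488 and 7678 (-0.065) and Slc7a6 read 615.6 and 540.9 (-0.49). Slc7a6os, whose probes lie next to those of Slc7a6, differed by 0.16. Slc7a10 (Asc-1) differed by -0.96 on a cDNA probe with runs of 16 bases shared by the start regions of 11 other genes, while its probe on the curated transcript read 2.73 and 25.1, at least 1.59-fold higher. Slc7a14 differed by -0.35. Slc7a12 exceeded background in 5/6Nx only, at 11.1 against 31.9, at least 2.01-fold higher, and Slc7a15 likewise, at least 1.64-fold higher. Slc7a9 and its heavy chain Slc3a1, the cystine carrier of the kidney tubule, were not well above background on either array, nor was Slc7a13.

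In the SLC1 family the neutral amino acid carriers and Slc1a7 were measured on both arrays. The glutamate carriers Slc1a2, Slc1a3 and Slc1a6 exceeded background in 5/6Nx monocytes only. Slc1a5 (ASCT2), a glutamine carrier, read 879.1 and 1217, a difference of 0.16, and Slc1a4 (ASCT1) read 1770 and 3404, a difference of 0.63. Slc1a2 (GLT-1), a glutamate carrier best known from astrocytes, read 2.64 in sham, not well above background, and 249.8 in 5/6Nx monocytes, at least 15.8-fold higher. Its other probe was not well above background on either array. Slc1a3 (GLAST) read 11.5 and 44.0, at least 2.78-fold higher, and Slc1a6 read 6.84 and 15.9, too near background for a fold. Slc1a7 differed by -0.19, and Slc1a1 was not well above background on either array.

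**Figure D2:**
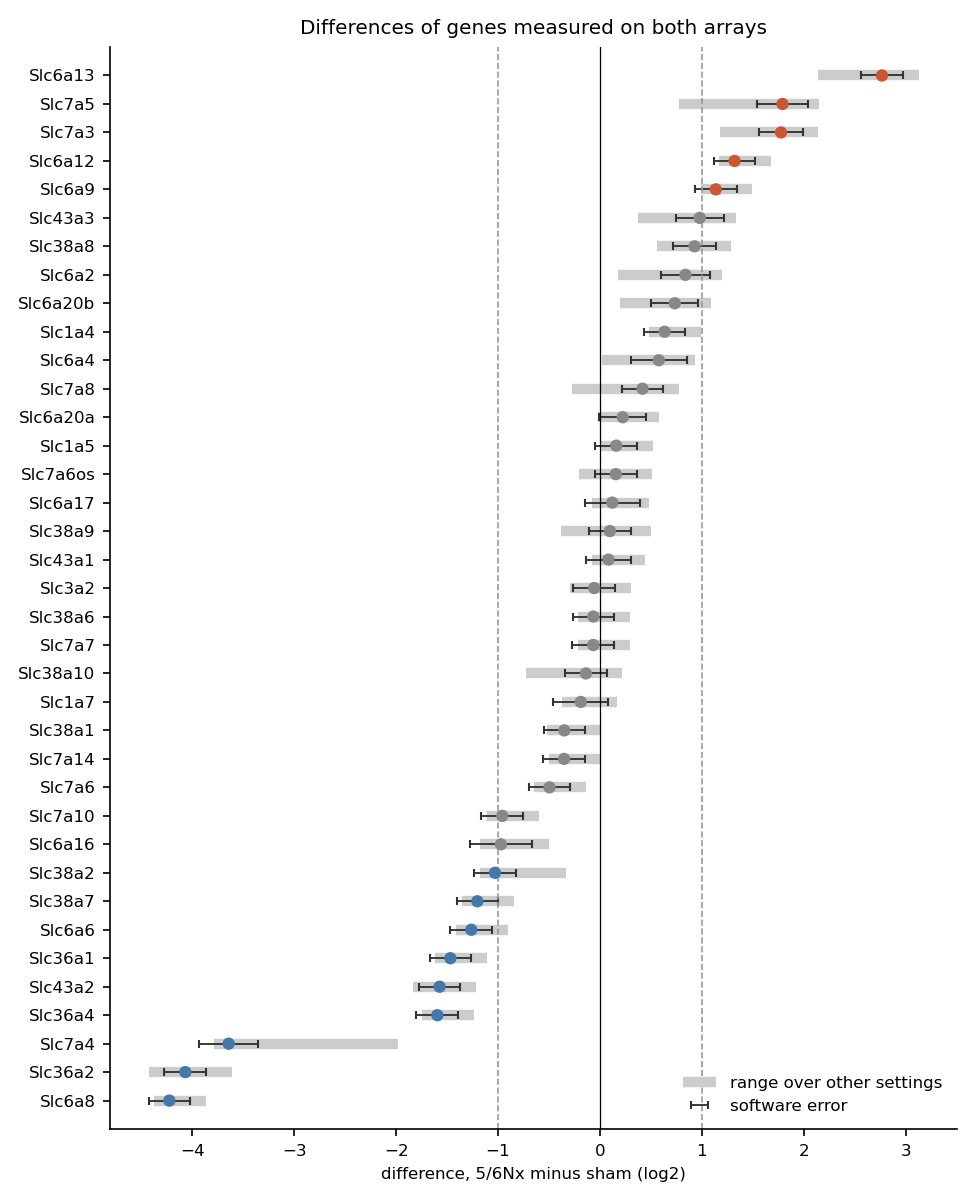
Difference (5/6Nx minus sham, log2) of 37 of the 38 genes measured on both arrays, with the software error as a thin bar and the range over other settings as a grey band; red points are at least 2-fold higher, blue points at least 2-fold lower and the dashed lines mark 2-fold. The bands of Slc6a13, Slc7a3 and Slc6a12 stay above the upper line and those of Slc6a8, Slc36a2, Slc7a4, Slc36a4, Slc43a2 and Slc36a1 stay below the lower line.

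Of the 15 genes at least 2-fold apart, 9 stayed so under each of the settings tried that measured them, and 14 kept their sign. Near the threshold on its inner side lay Slc6a9 upward (2.20-fold) and Slc38a2 and Slc38a7 downward (2.04-fold and 2.30-fold). Just outside it lay Slc43a3 and Slc38a8 upward (1.97-fold and 1.90-fold) and Slc6a16 and Slc7a10 downward (1.96-fold and 1.94-fold). Of the 17 genes with several measured probes, 7 had probes on both sides of 0, among them Slc3a2, Slc7a6os, Slc7a8, Slc38a2, Slc38a6 and Slc38a9.

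**Figure D3:**
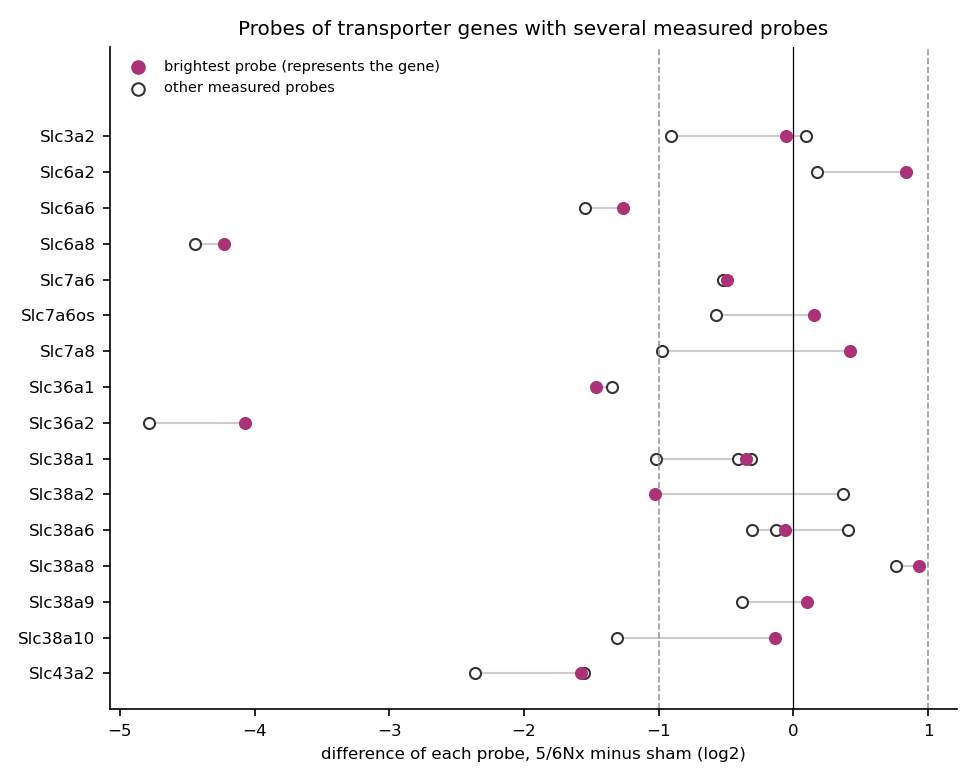
Difference (5/6Nx minus sham, log2) of every measured probe of 16 of the 17 genes with several such probes; filled points are the probe that stands for the gene and open points the others, and dashed lines mark 2-fold. The probes of Slc6a8, Slc36a2, Slc36a1, Slc6a6 and Slc43a2 all lie below the lower dashed line, while those of Slc38a2 lie on both sides of 0.

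By family and among genes measured on both arrays, none was 2-fold higher in SLC36, SLC38, SLC43, SLC1 and SLC3, and 4 of 12 measured SLC6 genes and 2 of 8 measured SLC7 genes were. Lower genes were 3 of 3 in SLC36, 2 of 7 in SLC38, 2 of 12 in SLC6, 1 of 3 in SLC43 and 1 of 8 in SLC7. Over all measured genes 12.3% were higher and 10.9% lower, and each family holds few measured genes. With spike-in scaling Slc38a8 (1.29), Slc43a3 (1.34), Slc6a2 (1.20) and Slc6a20b (1.09) were higher too. With median scaling Slc6a16 (-1.12) and Slc7a10 (-1.11) were lower too. With normexp these genes were at 0.56, 0.37, 0.25, 0.20, -0.50 and -0.83, in that order, all within 2-fold. The family medians ran from -1.60 in SLC36 to 0.66 in SLC6.

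**Figure D4:**
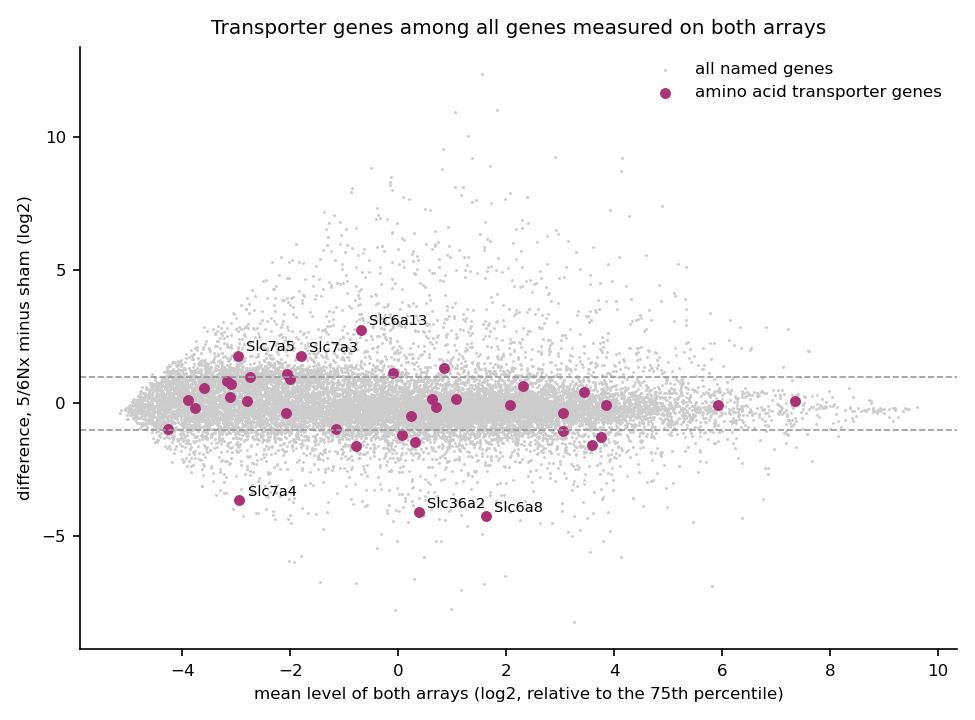
Difference (5/6Nx minus sham, log2) against the mean level of both arrays (log2, relative to the 75th percentile) for all 15715 genes measured on both arrays in grey and the 38 members in purple, with dashed lines at 2-fold. Members lie across much of the range of levels, short of the brightest genes. Slc7a5, Slc7a3 and Slc7a4, which are among those furthest apart, are on the dim side.

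The wider amino acid programme was read with 5 lists of related genes. In the amino acid deprivation response, genes linked to the transcription factor ATF4, which acts when amino acids run short, 6 of 20 were higher, 4 lower, and the median was 0.25. The largest differences were those of Nupr1, a stress-induced chromatin protein, at 426.8 against 11219 (4.41), Chac1, which breaks down glutathione, at 129 against 1526 (3.26), and Phgdh, the entry enzyme of serine synthesis, at 900.4 against 3993 (1.84). Atf4 itself differed by 0.044. The ATF4 element searched for in promoters (TGATGNAA, on both strands, 250 bases before to 50 after the RefSeq start, GRCm38.p6) was present for 2 of the 46 members with a promoter in the table (4.35%), beside 4.51% of all genes. These were Slc1a4 and Slc7a7, both within 2-fold, with the match in capitals (a match is only a run of letters, and a further match of Slc7a7 is not printed):
Slc1a4 promoter, minus strand, chr11:20332699-20332728: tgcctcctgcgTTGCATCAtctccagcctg
Slc7a7 promoter, minus strand, chr14:54418067-54418096: ccgcttgggctTGATGAAAggttcactggg

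Genes by which the kinase complex mTORC1 senses amino acids were mostly within 2-fold, with 1 higher and 5 lower of 27 measured and a median of -0.50. The sestrins, which bind leucine or restrain mTORC1, differed in direction: Sesn3 read 66.2 and 1218 (3.89) and Sesn1 read 2579 and 714.6 (-2.16). Sesn2, which is in the deprivation list and was picked out after its value was seen, differed by -1.24, and Fnip2, a partner of folliculin, by -1.54. Rragb was not well above background on either array. Of 20 cytosolic aminoacyl-tRNA synthetases, which charge tRNAs, 1 was higher and none lower, with a median of -0.040: Wars, which is also induced by interferon, differed by 1.21, and next in size were Vars at -0.73 and Qars at -0.65.

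Among enzymes of glutamine, glutamate, serine and branched-chain amino acids, 1 of 19 measured genes was higher and 2 were lower, and the median was -0.43. Glul, glutamine synthetase, read 20830 in sham and 911.6 in 5/6Nx monocytes, a difference of -4.82. Bcat1, a branched-chain aminotransferase, differed by 1.45 and Bckdha, of the branched-chain keto acid dehydrogenase, by -1.17. Gls2 exceeded background in 5/6Nx only. Among 15 measured amino acid and peptide carriers of other families, 4 were higher and 2 lower, and the median was -0.032. Slc15a3, a lysosomal histidine and peptide carrier, read 3482 and 14572 (1.76), Slc25a12, the mitochondrial aspartate-glutamate carrier, differed by 1.29 and Ctns, the lysosomal cystine exporter, by -1.20. Spike-in scaling, which adds the shift given above to each value, turned the medians of the synthetases and of the other carriers positive (0.32 and 0.33).

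**Figure D5:**
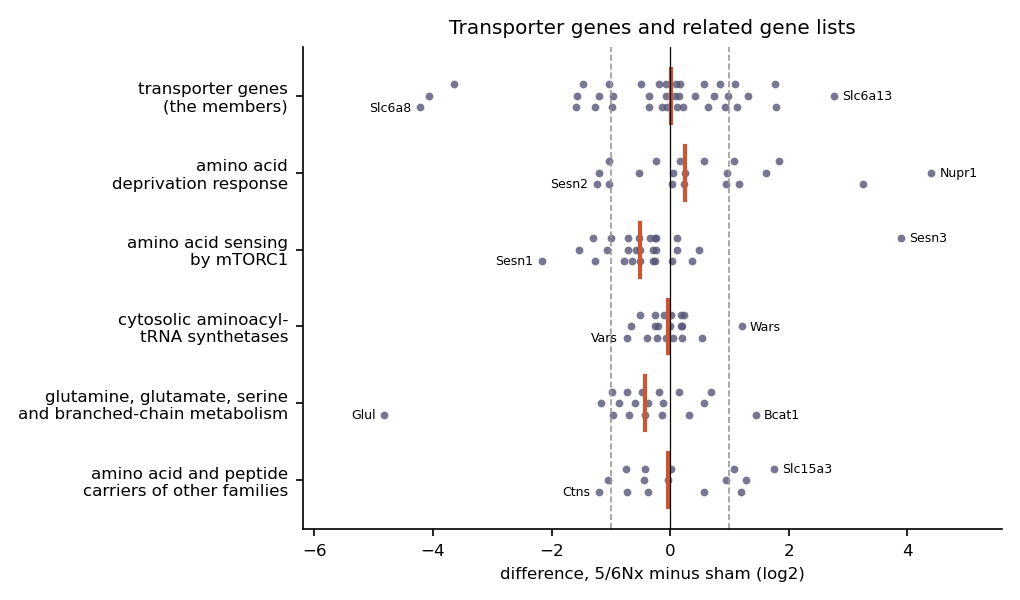
Differences (5/6Nx minus sham, log2) of the measured members and of the measured genes of 5 related lists, a point per gene, with a red bar at each median, dashed lines at 2-fold and the outermost genes named. The list medians lie between -0.50 and 0.25, and the synthetases are the most narrowly spread of the lists shown.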

How the data were processed

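RNA of sorted splenic monocytes was measured on 1-colour Agilent arrays, 1 for sham and 1 for 5/6Nx. The deposited files of the scanner give intensity on a linear scale, background-subtracted and detrended within each array per the file headers, with no scaling between arrays. Feature Extraction is version 9.5.1.1 per the submitters' processing notes and 10.7.1.1 per the file headers. Each processed intensity was divided by the 75th percentile of non-control spots on its array (442.1 for sham, 547.5 for 5/6Nx) and taken to log2. The authors' deposited value table, also linear intensity of unstated normalization, served as an alternative. Probe positions (mm9) and well-above-background flags are those of the file headers and columns, as deposited. Genes above background on 1 array only were given as bounds: the bright value against the dim probe or, if higher, the lowest well-above value on the dim array (12.8 for sham, 13.7 for 5/6Nx). All genes were named through a RefSeq table of GRCm38.p6 (12864 of 56605 probes had no match), members by the files' names. No test was made. Some members and markers are counted but not reported one by one. The steps were tested on simulated data, where 200 of 200 genes changed by known folds were recovered for this comparison over 16150 genes. Members, lists and rules for naming genes (all members above background, the 3 largest differences of each pathway list, the 2 largest of each marker list) were chosen with earlier results of these data known. Atf4 and further probes and genes shown beside a result were named after their values were seen. Alternatives were scaling (median, spike-in, quantile, loess), normexp, filters, probe summaries and thresholds. R 4.3.3, limma 3.58.1, Python 3.11.15 and pandas 2.3.3 were used.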

Additional observations from a re-analysis of the deposited data

How the results depend on the processing

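The counts of members at least 2-fold higher and lower (6 and 9) depended on the threshold. At 1.5-fold 11 were higher and 11 lower, and at 3-fold 3 were higher and 4 lower. The shares over all genes were not counted at these 2 thresholds. With spike-in scaling 10 were higher and 6 lower. Without the filter on dim probes 16 of 63 were higher and 12 lower. With genes above background on 1 array added at their bound, 11 of 45 were higher and 9 lower. The 7 added genes all exceeded background in 5/6Nx alone, so adding them could raise only the higher count. The share over all genes was not counted for this setting. Over all genes 19.4% were higher and 6.03% lower with spike-in scaling, and 14.9% and 10.9% without the filter. The share of higher genes among those apart was 40.0%, against 62.5% with spike-in scaling and 26.7% with median scaling, and 52.8%, 76.3% and 40.8% over all genes. The members' median (0.014) changed sign with many settings. It was -0.13 with median scaling, -0.041 with normexp, -0.065 with a signal of at least 50 on both arrays, -0.17 and -0.12 with the mean and the median over probes, -0.060 without probes that share bases with many genes and -0.060 with curated RefSeq probes only. It was 0.37 with spike-in scaling, 0.19 with loess, 0.12 without the filter and 0.12 with bounds added. The settings on shared bases and curated probes were chosen after seeing the data. Slc6a9 was at 0.99 with median scaling. Apart from the changes of probe, filter and threshold that act by construction, the cause was not tested. No paired analysis was possible because each group has 1 array. Precision is limited by the number of arrays, and below intensities of about 50 by background.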
